A study of Mus musculus with 4 samples.

Results

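Genes of the mouse Zfp series encode zinc finger proteins, and 139 of the 29181 features in the lists belonged to it. Members were features whose name is exactly Zfp followed by a whole number from 1 up, below 500, leaving out Zfp36 and Zfp42, and no measured value entered the choice. N6-methyladenosine (m6A) was measured base by base in poly(A) RNA of retinal organoids, tissue grown in culture from mouse pluripotent stem cells, at day 4. The wild type (WT) was the Rx:GFP line, which carries a green fluorescent reporter of the eye field gene Rax (also called Rx), with 2 libraries. The knockout (KO) was the Mettl3 KO Rx:GFP line, with 2 libraries, which per the growth protocol also harbors a Dox-inducible HA-METTL3. Both groups were grown in GMEM with KSR and 0.1 µM AGN and have "No" as treatment, and no doxycycline is recorded for them. The labels give neither the number of KO clones nor whether replicates were separate cultures, so p-values measure only the spread between these libraries.

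Most proteins of the series are transcriptional regulators built from repeated C2H2 zinc fingers, each a short fold held by a zinc ion that reads a few bases of DNA. Many also carry a KRAB domain, which recruits the corepressor TRIM28 and through it heterochromatin proteins, and in early embryonic cells such proteins silence transposons and hold imprinted loci in their methylated state. METTL3 catalyses most m6A of mRNA as part of a methyltransferase complex, and m6A on a transcript is read by proteins that shorten its life or alter its translation. In the GLORI assay, glyoxal and nitrite turn unmodified adenosine into a base read as G, so the share of reads that still show A at a position, here called the level, measures m6A. A read that escaped conversion shows A as well.

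Each library has its own list of called sites, and the values show that every listed site had at least 15 reads, at least 5 unconverted reads and a level of at least 0.1. Where a site is missing from a list, full conversion and thin coverage cannot be told apart. The libraries held 215850 to 288516 listed sites, with a median of 38 to 41 reads per site, and WT replicate 2 was the deepest. Gene coverage, the authors' coverage value of a gene, is given below relative to a library median. That median was taken over the 9263 genes with a value assignable to the gene alone in all 4 libraries. Mettl3 itself stood at 0.977 and 0.778 times the median in the WT libraries and at 1.12 and 1.02 times in the KO libraries. The labels name no deleted segment and the KO line carries a METTL3 transgene, so this value does not check the labels. Some eye field markers differed between the groups. Six3 stood at 15.9 and 17.1 times the median in the WT and at 1.74 and 2.40 times in the KO. Rax had 20 and 35 listed sites in the WT and 0 in each KO library. Pax6 did not follow, at 2.15 and 2.17 times the median in the WT and 2.52 and 2.18 times in the KO. Six6 had 0 listed sites in every library. The eye field list summed to 160 and 209 sites in the WT and 72 and 64 sites in the KO, and 2 of its 3 genes tested fell in gene coverage (limma) and 3 of 4 in listed sites (edgeR). The pluripotent list of 4 genes summed to 29 and 32 sites in the WT and 14 and 13 sites in the KO, with 0 of 2 genes tested called in gene coverage (limma) and 0 of 3 in listed sites (edgeR). In that list Nanog overlapped in listed sites, at 9 and 17 in the WT and 10 and 9 in the KO. Pou5f1 did not, at 9 and 10 sites in the WT and 4 in each KO library. Zfp42 and Tdgf1 were at 0 sites in both KO libraries. In gene coverage Nanog and Pou5f1 were lower in both KO libraries than in both WT libraries. Neither passed (log2 change -0.69 and -0.66, limma adjusted p = 0.0572 and 0.0549). Mesoderm and endoderm markers had at most 3 sites per library, neural crest markers had 1 and 4 sites in the WT and 7 in each KO library, and neuron markers had 18 to 24. The part of these differences in the results below was not tested. In such bulk samples, fewer cells of a type and less RNA per cell cannot be told apart.

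The 139 genes lay on 20 chromosomes, with 33 on chromosome 7, 15 on chromosome 17 and 14 on chromosome 13. A listed site lay inside 130 of them, and 105 had a site in every library. The 9 genes without one were Zfp78, Zfp85, Zfp108, Zfp112, Zfp182, Zfp300, Zfp389, Zfp429 and Zfp474. Together the members held 7993 positions, none of them inside a further protein-coding feature. The 10 genes richest in sites held 30.1% of the 8562 listings. Reads of near-identical zinc finger paralogs can be shared or misassigned, and the authors' handling of such reads is not given in the sources used here.

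Zfp genes were covered more thinly than the median gene. Their median gene coverage was 0.697 and 0.650 times the library median in the WT and 0.682 and 0.730 times in the KO. Their listed sites had a median of 32 and 34 reads in the WT and 34 and 32 reads in the KO, against 38 to 41 over all sites. Median site coverage thus overlapped between the genotypes (33.0 ± 1.41 reads in each, SD, n = 2; two-sided exact permutation p = 1). The share of sites with the deposited intron mark was 59.7% to 60.5% per library, against 44.7% to 44.9% over all sites. The annotation behind that mark is not given, and it also stood on a Zfp57 site 118 bases from the gene's 3′ end.

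The number of listed sites in Zfp genes did not separate the genotypes, but the sites at high level did. There were 2009 and 2638 in the WT and 2191 and 1724 in the KO. The means were 2324 ± 445 and 1958 ± 330.2 (SD, n = 2), a KO over WT ratio of 0.842, and the groups overlapped (two-sided exact permutation p = 0.667). A high-level site was defined as one with at least 50 reads and a level of at least 0.3. There were 108 and 173 such sites in the WT and 64 and 61 in the KO, so both KO libraries lay below both WT libraries. The means were 140.5 ± 46.0 and 62.5 ± 2.12 (SD, n = 2), a ratio of 0.445, where the ratio over all listed sites was 0.448. The ratio depended on the minima, at 0.227 with at least 100 reads and 0.282 with a level of at least 0.5. An exact permutation test of 2 against 2 libraries cannot go below the two-sided p = 0.333 found here.

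The difference grew with the level, in Zfp genes as over all listed sites. Among sites with at least 50 reads, Zfp genes had 350 and 519 sites with a level from 0.1 to 0.2 in the WT and 461 and 305 in the KO, and these ranges overlapped. From 0.3 to 0.5 the counts were 65 and 92 in the WT and 51 and 39 in the KO. From 0.7 to 1, the nearly full levels, they were 22 and 38 in the WT and 5 and 7 in the KO. Over all listed sites with at least 50 reads, that class held 2672 and 3961 in the WT and 526 and 876 in the KO. The fall was thus not particular to Zfp genes. As a share of the Zfp sites with at least 50 reads, high-level sites made up 19.6% and 20.6% in the WT and 10.4% and 13.6% in the KO. The shares averaged 20.1% ± 0.763 and 12.0% ± 2.24 (SD, n = 2; exact permutation p = 0.333, the smallest possible). Over all listed sites the same shares were 15% and 15.9% in the WT and 7.65% and 9.49% in the KO, below those of the Zfp genes in every library.

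**Figure D1:**
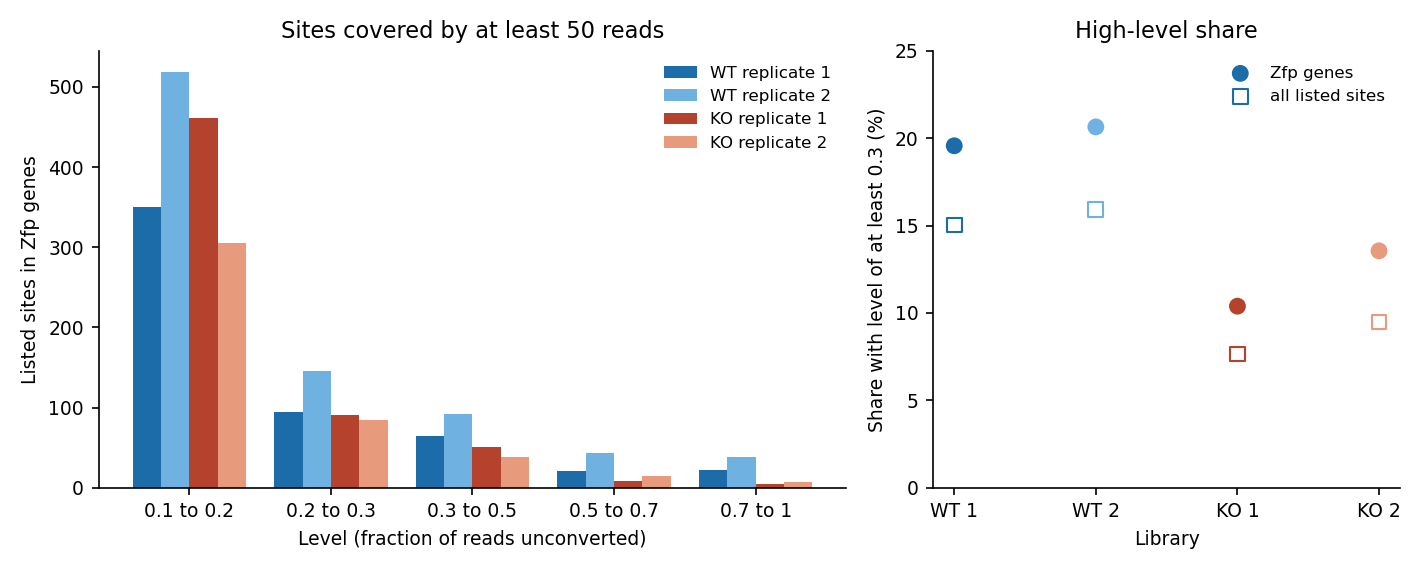
Left, listed sites in Zfp genes covered by at least 50 reads, counted by level class, 1 bar per library. Right, the share of such sites with a level of at least 0.3 in Zfp genes (filled circles) and over all listed sites (open squares); the Zfp shares are 19.6% and 20.6% in the WT and 10.4% and 13.6% in the KO, above the open squares in each library.

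These shares varied with coverage. Among sites with 50 to 75 reads, 23.4% and 26.8% were at high level in Zfp genes of the WT and 15.3% and 13.0% in the KO. Over all sites in that window the shares were 18.2% and 20.2% in the WT and 11.2% and 13.7% in the KO, so the Zfp share was the lower of the pair in KO replicate 2. With 75 to 100 reads the Zfp shares were 14% and 17.3% in the WT and 7.81% and 17.0% in the KO, so KO replicate 2 lay between the WT libraries. With 100 to 200 reads they were 18.4% and 13.7% in the WT and 3.50% and 13.6% in the KO, and there KO replicate 2 lay beside WT replicate 2. The median level of listed Zfp sites was 0.280 and 0.281 in the WT and 0.238 and 0.259 in the KO. The group values were 0.281 ± 0.000884 and 0.248 ± 0.0145 (SD, n = 2), which did not overlap (exact permutation p = 0.333, the smallest possible). Over all listed sites the medians were 0.246 and 0.241 in the WT and 0.213 and 0.232 in the KO, which did not overlap either. The gap in Zfp genes was smaller among deeper sites. Mean medians were 0.168 in the WT and 0.152 in the KO with at least 50 reads, and 0.148 and 0.138 with at least 100.

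Few Zfp sites recurred, and recurrence was highest between the WT libraries. Of the 7993 positions, 93.5% were in 1 list only and 7 were in all 4. The WT libraries shared 229 of the 4418 positions in either, or 5.18%. The KO libraries shared 71 of 3844, or 1.85%, and the 4 pairs of a WT with a KO library shared 1.57% to 2.30%. Over all sites the WT libraries shared 5.89% and every other pair 2.60% to 2.74%.

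Depth and level raised the recurrence within the WT. Of the 108 high-level Zfp sites of WT replicate 1, 44 (40.7%, Wilson 95% interval 31.9% to 50.2%) were in the list of WT replicate 2, and 4 to 7 were in a KO list. Of the 64 high-level sites of KO replicate 1, 3 (4.69%, 1.61% to 12.9%) were in the list of KO replicate 2. The KO libraries thus listed few of each other's high-level Zfp sites. Over all high-level sites the same 2 shares were 47.1% and 9.91%, so the pattern was not particular to Zfp genes. With at least 100 reads, 19 of 27 Zfp sites of WT replicate 1 (70.4%, 51.5% to 84.1%) were found again in WT replicate 2. Over all sites that share was 73.6%. Of the 27 Zfp sites, KO replicate 1 listed 0, which allows a share of up to 11.1%, and KO replicate 2 listed 3. From WT replicate 2, 54 of 173 high-level Zfp sites (31.2%) were in WT replicate 1, and 22 of 39 (56.4%) with at least 100 reads. Between the KO libraries, 0 of 5 and 1 of 10 Zfp sites with at least 100 reads were found again. Over all high-level sites those KO shares were 23.3% and 18.5%, above the 9.91% and 10.7% with at least 50 reads. PCR copies were not identified in the lists, so these intervals cover counting error only.

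Sites listed in both WT libraries are the most secure wild-type sites, and 72 Zfp genes held 229 of them. Of these, 198 were in neither KO list, and 47 genes had none of their shared sites in a KO list. With at least 20 reads in each WT library, and in genes with a site in each KO list, 174 of 201 (86.6%, 81.2% to 90.6%) were in neither KO list. The reverse share, of sites shared by the KO libraries and in neither WT list, was 51 of 67 (76.1%, 64.7% to 84.7%), and the intervals overlapped. Over all genes the shares were 82.9% and 72.0%. Expected KO coverage, the site's WT coverage scaled by the gene's coverage in the KO library, was at least 50 reads for 88 of the sites. Of these, 73 (83.0%, against 80.6% over all genes) were absent from both KO lists. The genotypes also differed in how many strong sites their libraries shared, in genes with a listed site in each library of the other genotype. In Zfp genes, 32 sites had at least 50 reads and a level of at least 0.3 in both WT libraries. Of these, 26 were in neither KO list, and 0 sites met the same criteria in both KO libraries. Over all genes 3780 sites met them in the WT, of which 85.1% were in neither KO list, and 135 in the KO. The contrast was thus not particular to Zfp genes.

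The strongest shared sites of the WT were 26 sites in 15 genes, with at least 50 reads in each WT library and a mean level of at least 0.5. They were chosen on WT levels, so their WT values are a description, and the choice itself favours lower levels in the KO. Of the 26, 21 were in neither KO list, 2 were in the list of KO replicate 1 and 3 in that of KO replicate 2. For 18 of the 21 the expected coverage was at least 50 reads in both KO libraries. Each of the 5 listed KO levels was below both WT levels of the same site. Coordinates are those of the lists, and the build they follow is not settled (the processing notes name mm10, but few gene starts match it).

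Zfp57 encodes a KRAB protein that binds methylated DNA at imprinting control regions and keeps them methylated. It lies on the plus strand of chromosome 17 from 37312055 to 37321527. Its site at 37321409 had levels of 0.923 and 0.989 in the WT, over 130 and 88 reads, and 0.496 over 141 reads in KO replicate 2, while KO replicate 1 did not list it. This was the highest KO level among the 26 sites. Its sites at 37320609 (0.729 and 0.993) and 37320589 (0.610 and 0.632) were in neither KO list. Zfp57 had 28 and 35 listed sites in the WT and 20 and 12 in the KO, which did not overlap but did not pass the test across genes described below (log2 change -0.77, adjusted p = 0.344 by edgeR's quasi-likelihood test). Its coverage stood at 1.09 and 1.15 times the library median in the WT and 0.809 and 1.02 times in the KO. Zfp445, which shares the imprint-keeping role, had 10 sites in both WT lists and none of them in a KO list, with a gene value of 1.03 and 1.19 times the library median in the WT and 1.21 and 1.20 times in the KO.

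Regulators of chromatin and of other genes were among the strongest sites too. Zfp410, an activator of the chromatin remodeller gene Chd4, had a site at position 84390090 of chromosome 12, plus strand, 407 bases from the gene's 3′ end. Its levels were 0.880 and 0.916 in the WT over 133 and 143 reads, and no KO library listed it at an expected 133 and 107 reads. Zfp106, an RNA-binding protein needed by motor neurons, had a site at 120362533 of chromosome 2, minus strand, with levels of 0.880 and 0.925 over 100 and 333 reads. It was in neither KO list, although KO replicate 1 listed a position 17 bases away with 127 reads. Both sites were thus at nearly full level in the WT and unlisted in the KO where coverage was expected. Zfp451, a SUMO ligase, had a site at 33816378 of chromosome 1, minus strand, with levels of 0.750 and 0.812 over 52 and 64 reads, and neither KO library listed it.

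Zfp12 showed the pattern at greater depth. Its site at 143233137 of chromosome 5, plus strand, had levels of 0.927 and 0.701 over 246 and 455 reads in the WT and 0.221 over 439 reads in KO replicate 2. KO replicate 1 did not list it but listed a position 11 bases away with 659 reads, so reads reached that stretch. The nearby position 143233156 was in all 4 lists and did not share the pattern, with levels of 0.159 and 0.157 in the WT and 0.208 and 0.252 in the KO. Zfp317 had the most reads among the 26 sites, at 19559756 of chromosome 9, plus strand: its levels were 0.697 and 0.564 over 458 and 679 WT reads, and no KO library listed it at an expected 619 and 510 reads. Zfp26 had levels of 0.861 and 0.868 at 20347260 of chromosome 9, minus strand, over 72 and 53 WT reads, and 0.174 over 86 reads in KO replicate 1.

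Zfp292, a large protein with many zinc fingers whose human counterpart is mutated in neurodevelopmental disorder, held the most sites shared by the WT libraries. It had 15 of them, and 14 were in neither KO list. The strongest, at 34803592 of chromosome 4, minus strand, 479 bases from the 3′ end, had levels of 0.864 and 0.726 over 81 and 168 reads. Its coverage stood at 0.878 and 1.01 times the library median in the WT and 1.02 and 1.01 times in the KO, so both KO values lay at or just above the WT values. Zfp318, needed in B cells for the expression of immunoglobulin D, had levels of 0.897 and 0.739 at 46725211 of chromosome 17, plus strand, and neither KO library listed that site. Zfp462, which restrains gene expression in stem cells through heterochromatin, had 10 shared sites of which 7 were in neither KO list.

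**Figure D2:**
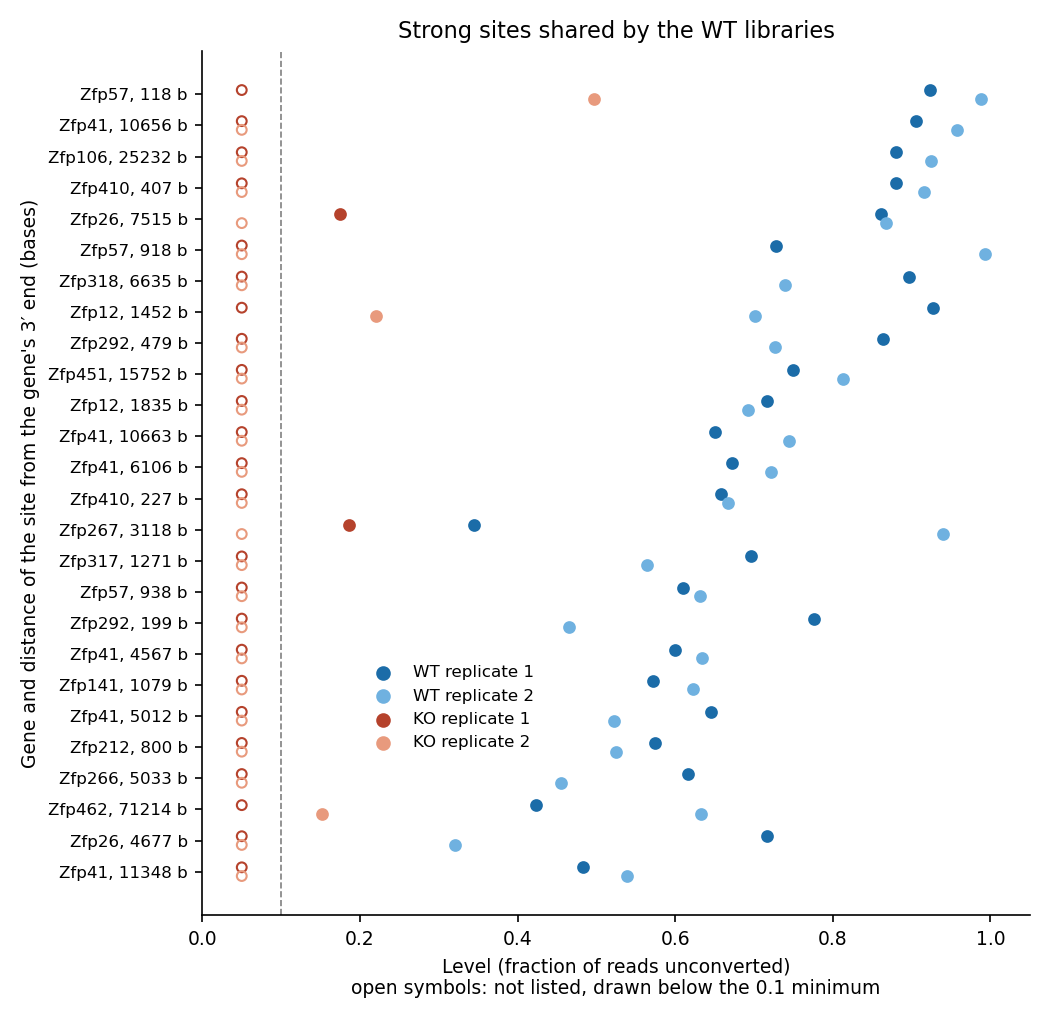
Levels (fraction of reads unconverted, horizontal axis) of the 26 strongest Zfp sites shared by the WT libraries, labelled by gene and distance from the gene's 3′ end; filled points are listed levels and open points are libraries that did not list the site, drawn below the minimum of 0.1. Of the 26 sites, 21 have open points for both KO libraries, and the 5 listed KO levels lie left of both WT levels. The sites were chosen on WT levels, which favours lower KO levels.

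Within 1000 bases of the gene's 3′ end lay 8 of these 26 sites. Of all high-level Zfp sites, 19.4% and 28.9% lay there in the WT and 17.2% and 26.2% in the KO, and the ranges overlapped. For high-level sites of protein-coding features in general the shares were 30.7% and 25.2% in the WT and 16.4% and 19.6% in the KO. Of all listed Zfp sites, 16.5% to 21.2% lay within that distance. Sequence around the sites was not analysed here.

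Sites present in all 4 lists allow levels to be compared directly, and there were 7 in Zfp genes, of which 6 had at least 20 reads in each library. None of the 6 passed edgeR's quasi-likelihood test of the unconverted share, where 2.63% of 1557 sites of all genes did, each of them lower in the KO. At an unadjusted p under 0.05 the same edgeR test gave 0 lower and 1 higher among the 6, against 5.78% and 1.86% of all sites, and with replicates summed Fisher's exact test called 2. The 1 higher was the Zfp12 site at 143233156 (read counts 201 and 331 in the WT, 370 and 302 in the KO; log2 odds 0.66 ± 0.26 SE, edgeR adjusted p = 0.574). The deepest was in Zfp362 at 128667052 of chromosome 4, minus strand, with levels of 0.141 and 0.123 in the WT and 0.148 and 0.182 in the KO over 1028 to 1433 reads (edgeR adjusted p = 0.822). The others were in Zfp335, which is needed by neural progenitors, and in Zfp395, Zfp397 and Zfp35. Being listed in both KO libraries is a condition for this test, so it cannot show the strong sites above.

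The seventh site was in Zfp423, a cofactor of EBF and SMAD proteins in brain development. At 88507013 of chromosome 8, minus strand, its levels were 0.714 and 0.813 in the WT over 21 and 16 reads and 0.125 and 0.318 in the KO over 40 and 22 reads. The groups did not overlap, but the site was below the minimum of reads, and without that minimum its edgeR adjusted p was 0.0679.

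The number of listed sites per gene was then compared gene by gene, given each library's total of listed sites. Of the 130 genes with a site, 24 had fewer than 10 and were not tested. Of the 106 tested, 2 fell in the KO (Zfp101 and Zfp41) and 0 rose (edgeR's quasi-likelihood test, Benjamini-Hochberg over all genes), where 2.47% of 10759 genes passed, 1.34% lower and 1.13% higher. At an unadjusted p under 0.05 edgeR gave 10 lower and 5 higher, against 7.35% and 6.78% of all genes, and DESeq2 called 0 after adjustment. The median log2 change was -0.01 over the 106 and 0.02 over all genes tested. Both KO libraries had fewer sites than both WT libraries in 29 of the 106, against 26.6% of all genes, and more in 10, against 11.5%. These shares were near those of all genes.

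Zfp101 lies on chromosome 17, minus strand, from 33579481 to 33613615. It had 11 and 21 listed sites in the WT and 1 in each KO library, a log2 change of -3.63 ± 0.85 (SE; edgeR adjusted p = 0.00275). The ratio of sites given the library totals was 0.0723, with an exact interval of 0.00839 to 0.283. That interval pools the libraries of a genotype (32 sites in the WT and 2 in the KO). It covers counting error only and not the spread between libraries. Its coverage was low, 0.389 and 0.365 times the library median in the WT, and neither KO list gave a value assignable to this gene alone. None of its sites met both minima of a high-level site, with WT medians of 23 and 24 reads and levels of 0.391 and 0.421. The lists therefore do not tell a fall in coverage from a fall in methylation for this gene, and without WT replicate 2 the call was lost. It was the member with the largest fall in listed sites that passed the test, so its promoter is shown, from RefSeq on GRCm38.p6, chr17:33394588-33394887, minus strand, 300 bases around the start. The capitals mark the CCAAT box, searched as CCAAT on both strands.

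Zfp101 promoter: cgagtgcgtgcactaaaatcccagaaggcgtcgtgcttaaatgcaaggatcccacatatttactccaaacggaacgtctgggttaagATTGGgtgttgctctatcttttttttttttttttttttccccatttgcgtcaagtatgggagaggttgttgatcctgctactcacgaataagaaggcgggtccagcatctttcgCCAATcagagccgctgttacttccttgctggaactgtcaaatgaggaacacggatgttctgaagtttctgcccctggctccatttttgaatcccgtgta

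It held 2 CCAAT boxes, 13 CpG pairs, 45.7% G and C, and neither GGGCGG (the GC box) nor TATAAA (the TATA box) on either strand. A CCAAT box was in 37.4% of 32851 promoters of that length and in 40.2% of 132 promoters of 108 Zfp genes. GC boxes were in 35.7% and 44.7%, and TATA boxes in 13.6% and 9.85%. Promoters of Zfp genes had a median of 16 CpG pairs, against 7 over all promoters.

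Zfp41 lies on chromosome 15, plus strand, from 75488528 to 75501676, and differed in site number and in gene coverage. It had 39 and 47 listed sites in the WT and 15 in each KO library, a log2 change of -1.31 ± 0.36 (SE; edgeR adjusted p = 0.0195). It had 8 and 13 high-level sites in the WT and 2 and 1 in the KO, which did not pass the test on high-level sites below (log2 change -2.43, edgeR adjusted p = 0.133). Its coverage stood at 1.38 and 1.47 times the library median in the WT and 0.735 and 0.80 times in the KO, a log2 change of -0.88 ± 0.17 (SE; limma adjusted p = 0.0133). None of these 3 measures overlapped between the genotypes, and the part of gene coverage in the number of listed sites was not tested. Its call on listed sites was lost without any 1 library (adjusted p from 0.0538 to 0.258), and that on gene coverage without any 1 library other than WT replicate 1 (adjusted p from 0.0748 to 0.0936).

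The WT libraries shared 11 Zfp41 sites, and none of the 11 was in a KO list. At 75491020 the levels were 0.906 and 0.957 over 138 and 141 reads, at 75491013 they were 0.650 and 0.745, and at 75496111 every one of 38 and 63 reads was unconverted. The 11 sites spread over most of the gene, from 13004 to 670 bases from its 3′ end. Expected KO coverage ran from 10.1 reads at the thinnest to 148 reads at 75496872, where the WT levels were 0.175 and 0.402. Both KO libraries did list other Zfp41 positions, with medians of 30 and 47 reads, and the lowest level among them was 0.123. The authors' conversion rate for the gene, the share of its adenosines read as G, was 92.4% and 92.9% in the WT and 95.9% and 96.4% in the KO, where the median over all genes was 96.1% and 96.2% in the WT and 97.2% and 96.6% in the KO.

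**Figure D3:**
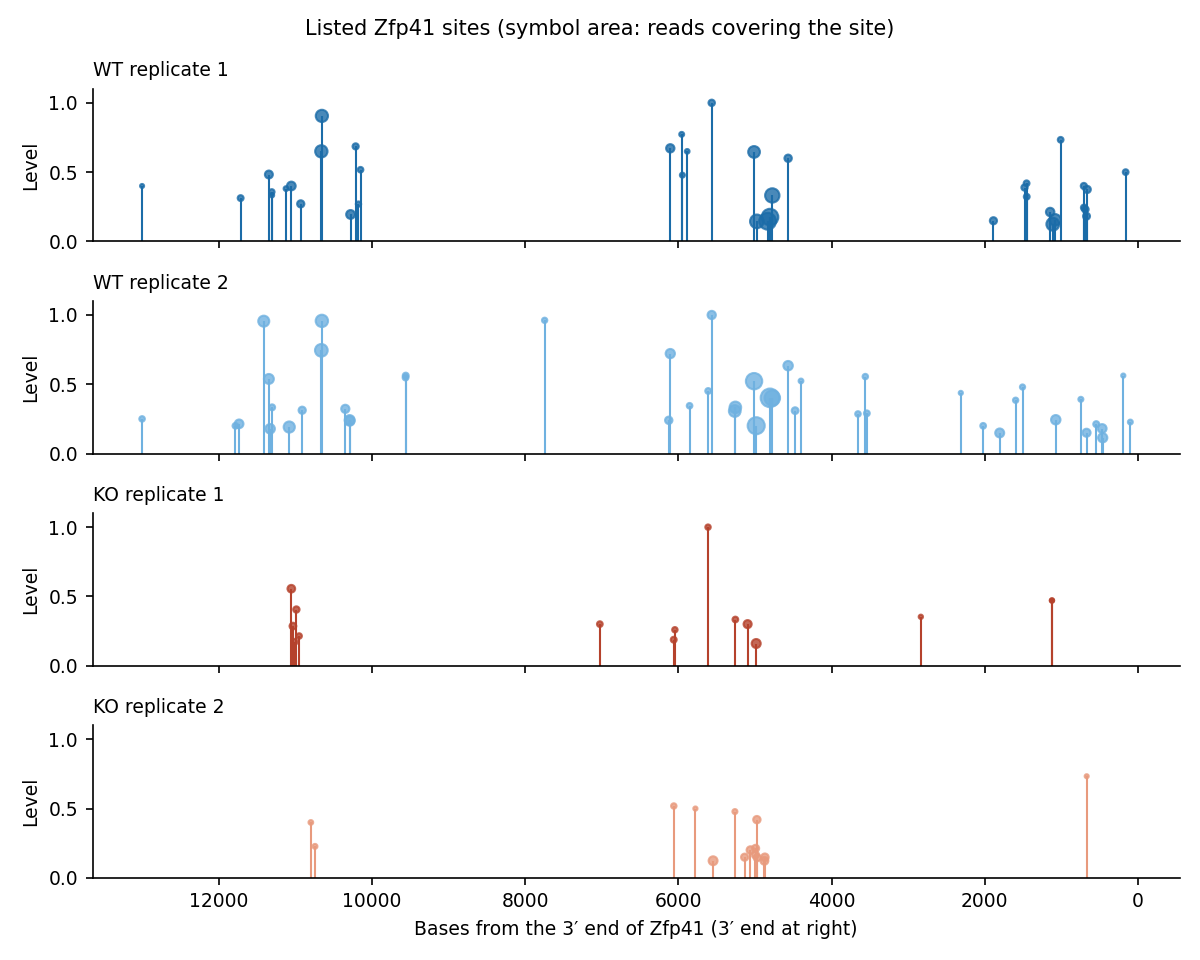
Listed Zfp41 sites in each library, by distance from the gene's 3′ end in bases (3′ end at right) and level (fraction of reads unconverted); symbol area grows with the reads covering the site. The WT libraries have 39 and 47 sites and the KO libraries 15 each, and none of the 11 sites shared by the WT libraries is in the KO panels.

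The other Zfp genes with many sites did not pass the test, which does not show that they kept their numbers. Zfp207, a spindle assembly protein that binds microtubules and BUB3, had 82 and 104 sites in the WT and 85 and 111 in the KO. It was among the best covered, at 3.18 and 3.09 times the library median in the WT and 3.0 and 2.40 times in the KO. Zfp292 had 96 and 100 sites in the WT and 100 and 65 in the KO, and Zfp445 had 65 and 92 in the WT and 93 and 41 in the KO. In these 3 genes the replicates of a genotype differed as much as the genotypes did. Zfp462 had 76 and 97 sites in the WT and 64 and 59 in the KO, and Zfp266 had 73 and 76 in the WT and 67 and 54 in the KO; neither pair of groups overlapped and neither gene passed (edgeR adjusted p = 0.654 and 0.914).

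**Figure D4:**
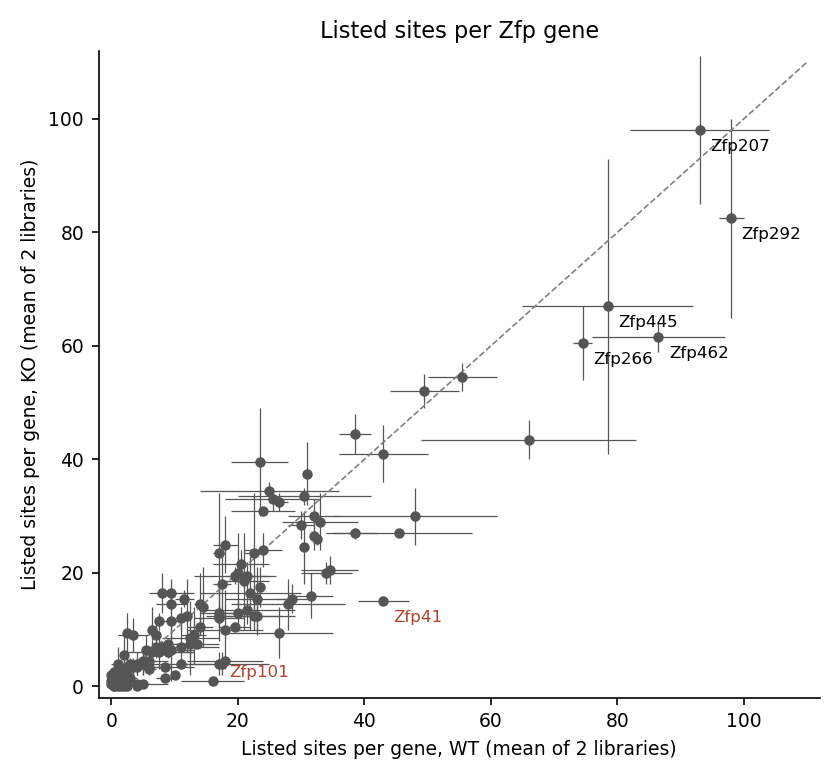
Listed sites per Zfp gene, mean of the 2 WT libraries (horizontal axis) against mean of the 2 KO libraries (vertical axis), with bars from the lower to the higher library and the dashed line of equal numbers. Zfp101 and Zfp41, named in red, are the members that passed the test, and both lie below the line.

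None of the members named for a known role passed the test on listed sites, and they differed in how many sites the WT libraries shared. Zfp281, a regulator of the exit from pluripotency, had 7 sites shared by the WT libraries and none of them in a KO list, while its listed sites were 27 and 39 in the WT and 34 and 24 in the KO. Zfp217, reported to bind METTL3 in embryonic stem cells, had 4 shared WT sites, none in a KO list, and 35 and 61 sites in the WT and 35 and 25 in the KO. Zfp131 had 5 shared WT sites and Zfp110, a partner of the p75 neurotrophin receptor, had 3, and neither gene had any of them in a KO list. Zfp384, a factor of matrix genes, had 3 and kept 1 in a KO list. Zfp143, an activator of many promoters, had 10 to 14 sites per library and none in common between the WT libraries, and Zfp148 had 25 to 33 sites per library and 1 shared by the WT.

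Sharing was not limited to the WT. The KO libraries shared 71 Zfp positions in 42 genes, of which 55 were in neither WT list. Zfp207 had 7 of these, all absent from the WT lists, against 4 shared by the WT libraries and absent from the KO lists. Zfp91, a ubiquitin ligase, had 5 shared by the KO libraries and absent from the WT lists, and 2 shared by the WT libraries. High-level sites of Zfp91 numbered 2 and 1 in the WT and 2 and 5 in the KO, and those of Zfp207 numbered 3 and 3 in the WT and 3 and 1 in the KO. Zfp326, a splicing-linked protein, had 2 shared WT sites and 1 shared KO site, and Zfp260 and Zfp319 had 1 shared WT site each. Zfp125, at 0 to 3 sites per library, had none.

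High-level sites per gene were compared given each library's number of sites with at least 50 reads. Of the 139 members, 52 had no high-level site, 46 had fewer than 4 in all and were not tested, and 41 were tested. None of the 41 passed edgeR's quasi-likelihood test, where 0.333% of 4507 genes did, all lower. With so few sites per gene, not passing does not show that a gene kept its high-level sites. At an unadjusted p under 0.05 edgeR gave 6 lower and 0 higher, against 16.1% and 0.444% of all genes. The median log2 change was -1.13 over the 41, as it was over all genes tested, and 33 of the 41 (80.5%) were below 0, against 75.1% of all genes. Both KO libraries were below both WT libraries in 16 of the 41, against 39.3% of all genes, and above in 1, against 2.55%. High-level sites of Zfp57 numbered 5 and 6 in the WT and 2 and 2 in the KO, those of Zfp292 6 and 10 in the WT and 2 and 2 in the KO, and those of Zfp12 3 and 7 in the WT and 1 and 0 in the KO. Zfp410 did not follow, at 3 and 6 in the WT and 1 and 5 in the KO.

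Gene coverage of the Zfp genes was compared as a measure of transcript amount, on the log2(value + 1) scale. Of the members, 97 had a value assignable to the gene alone in all 4 libraries and 42 did not. A gene without a listed site in a library had no value there and was not tested. Zfp296, Zfp324, Zfp352 and Zfp382, for example, had values in both WT libraries and no listed site in the KO. Zfp277 had values in both KO libraries and in neither WT library. The test therefore does not show that coverage was unchanged in members outside the 97. Of the 97, 1 fell (Zfp41) and 0 rose by limma, where 4.71% of 9263 genes passed, 2.49% lower and 2.21% higher. Those were 231 genes lower and 205 higher, and without centring the libraries 278 lower and 94 higher, with Zfp41 still called. At an unadjusted p under 0.05 limma gave 4 lower and 4 higher, against 11.8% and 10.4% of all genes. The median log2 change was -0.04 over the 97 and -0.02 over all genes. Both KO libraries lay below both WT libraries in 24 of the 97, against 28.9% of all genes, and above in 17, against 24.2%. Zfp346, a protein that binds double-stranded RNA, was at 1.17 and 0.999 times the median in the WT and 0.619 and 0.765 times in the KO, which did not pass (log2 change -0.64, limma adjusted p = 0.0670). Zfp451 was at 0.721 and 0.900 times in the WT and 1.09 and 1.16 times in the KO, which did not pass either (log2 change 0.47, limma adjusted p = 0.148).

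**Figure D5:**
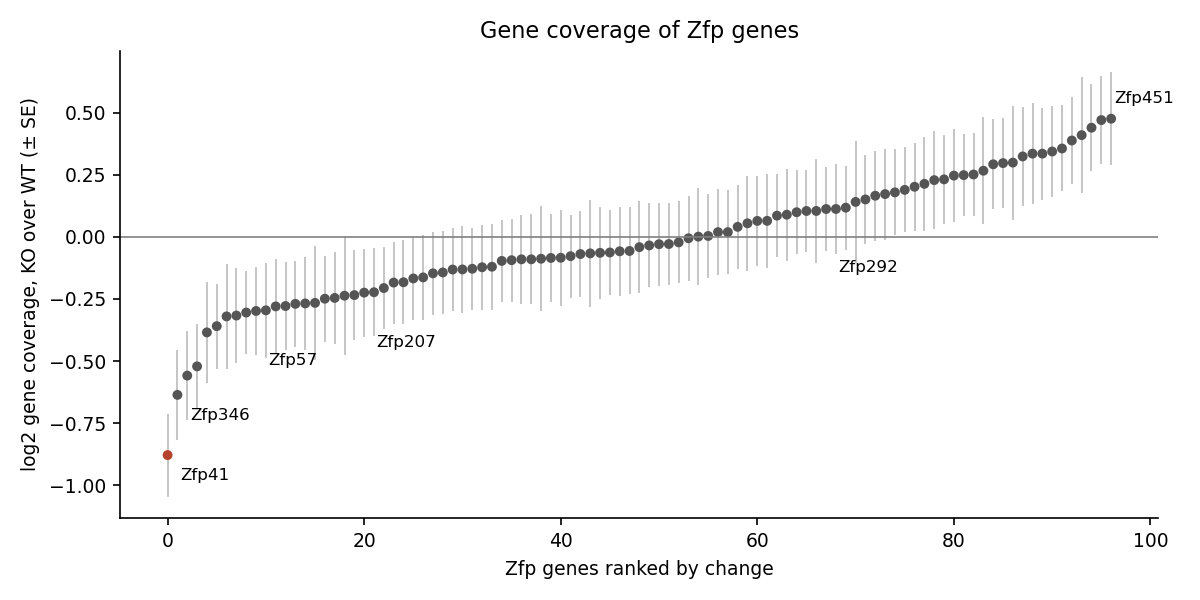
log2 change of gene coverage, KO over WT, of the 97 Zfp genes with a value in all 4 libraries, ranked from lowest to highest; bars are standard errors of the limma fit and the red point passed the test. Zfp41, at -0.88, is the only red point, and the median of the genes is -0.04.

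The proteins through which KRAB zinc fingers act were taken as a list of 14 genes, of which 10 were in the lists; Trim28, Setdb1, Atf7ip and Resf1 were not analysed here. Of the 9 with a value in all libraries, 0 rose and 0 fell in gene coverage by limma, and of 10 tested for listed sites 0 rose and 0 fell by edgeR. Cbx5, which encodes heterochromatin protein HP1 alpha, was at 4.18 and 5.03 times the median in the WT and 3.27 and 2.82 times in the KO (log2 change -0.59, limma adjusted p = 0.0802). Morc3, which acts in silencing of repeats, was at 1.22 and 1.12 times in the WT and 1.11 and 1.18 times in the KO, so its groups overlapped. The list summed to 403 and 495 sites in the WT and 386 and 383 in the KO.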

How the data were processed

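Each of the 4 GLORI libraries had its own list of called sites, and groups came from the sample titles. Per the file headers, each site has deposited counts of all its A or G reads and of its A reads, which were used unchanged. The level is the fraction of unconverted reads that the authors deposited, and the authors' conversion rate is also a fraction. Gene coverage is the authors' deposited coverage signal, whose scale is not stated, and the deposited p-value per site was at most 0.004. Pairs of coverage and conversion rate that stood chromosome-wide (18.4% to 24.3% of listed sites per library) or were shared between genes were left out. A gene had a value in a library only where its remaining sites all gave the same pair. The aligner and the caller are not given in the sources used here. The submitters' processing notes name mm10, yet just 3.32% of features start within 1000 bases of where RefSeq's GRCm38.p6 table starts them, and that table served for names (136 of 139 members matched) and promoters only.

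Same-strand sites inside a gene's start and end were counted. Python 3.11.15 and R 4.3.3 were used, with edgeR 4.0.16 for counts (offset by library totals; at least 10 listed or 4 high-level sites per gene, or 20 reads per site), limma 3.58.1 for log2(coverage + 1) centred on the median, and DESeq2 1.42.0 as an alternative. All genes were tested and adjusted together by Benjamini-Hochberg, with a threshold of 0.05. The edgeR and limma steps were also run on simulated data, where the tests of sites per gene missed most of the falls put in. Other alternatives were further minima of coverage and level, other offsets, other readings of gene coverage, a replicate block and leaving out each library. Deviations of same-numbered replicates correlated at -0.02 (gene coverage) and -0.08 (site number), so the numbers were not taken to pair libraries.

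Genes named were those past a threshold, the 10 with the most sites shared by the WT libraries, the 8 with the strongest shared site, and members with a known role; a few others were chosen after their values were seen (Zfp317, Zfp346, Zfp362 and the others listed at all 4 libraries, Zfp62, Zfp64, Zfp414 and Zfp422). Members, lists and tests were chosen with earlier results of these data known.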

Additional observations from a re-analysis of the deposited data

How the results depend on the processing

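The ratios of listed and high-level Zfp sites kept their direction under the 9 alternatives tried for each, as did the median level under 7, but not their size: the ratio of high-level sites ran from 0.227 (at least 100 reads) to 0.643 (at least 20 reads). The share of shared WT sites in neither KO list was 75% with a listed KO neighbour within 50 bases (an alternative chosen after seeing the data, 16 sites) and ran from 90.0% to 93.5% when each library was left out, where fewer lists had to lack or share a site. Of members called for listed sites (2 at first), DESeq2 called 0, the replicate block 1 (Zfp101), and leaving out each library 0 to 2: none without WT replicate 2, Zfp101 without WT replicate 1, Zfp101 and Zfp329 without KO replicate 1, and Zfp101 and, as a rise, Zfp62 without KO replicate 2. For high-level sites, a minimum of 20 reads gave 1 (Zfp41). For site levels, Fisher's exact test gave 2 (Zfp12 and Zfp362, both higher), and leaving out each library 0 to 1. For gene coverage, the replicate block gave 2 (Zfp346 and Zfp41), and the most frequent value per gene called Zfp286 in place of Zfp41 (limma adjusted p = 0.121). Leaving out a library could lose the Zfp41 call, and without KO replicate 1 a rise of Zfp94 was called in its place. The block changed no other count of member calls. The adjusted p of Zfp41 for listed sites was 0.437 with DESeq2 and 0.0646 with the block, and that of Zfp101 was 0.295 with DESeq2. Where a library is left out, the lone library of a group is assumed to vary like the other group. Over all genes, calls went from 266 to 40 for listed sites with DESeq2 and to 143 with the block, from 41 to 168 for site levels with Fisher's test to 69 with a likelihood ratio test and to 55 with the block, from 15 to 0 for high-level sites with another offset, and from 436 to 48 for gene coverage with the most frequent value and to 783 with the block. For high-level sites they also went to 3 with no minimum of sites and to 1 with the block. Leaving out each library gave 55 to 249 calls over all genes for listed sites, 0 to 3 for high-level sites, 0 to 165 for site levels and 13 to 366 for gene coverage, the lowest of the last 2 without KO replicate 2. Without centring, which moved the median of all genes by -0.11 on the log2 scale, 278 genes fell and 94 rose in gene coverage, against 231 and 205 with it. Depth limits every absence from a list: most Zfp sites had under 50 reads.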

Other observations

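A few Zfp genes, chosen after their values were seen, had their high-level sites mainly in KO replicate 1. Zfp62 had 0 and 2 in the WT and 6 and 0 in the KO, and Zfp64 had 2 and 0 in the WT and 5 and 0 in the KO, so in both the KO replicates disagreed. Zfp62 also had 19 and 28 listed sites in the WT and 49 and 30 in the KO (log2 change 0.95, edgeR adjusted p = 0.0968), and it passed as a rise when KO replicate 2 was left out. In gene coverage, Zfp414 was at 1.27 and 1.37 times the library median in the WT and 0.990 and 0.796 times in the KO, and Zfp422 at 2.90 and 3.26 times in the WT and 2.05 and 2.23 times in the KO. Neither passed (limma adjusted p = 0.0927 and 0.0987). Zfp422 shared 5 sites between the WT libraries.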
